A study of Mus musculus with 6 samples.

Results

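Of 530 kept wells of single cells sorted from the neonatal mouse hypothalamus, 93 held at least 1 count of Pdyn and none of Tac1 or Rprm. These Pdyn-only wells were chosen by those 3 genes, so the levels of Pdyn, Tac1 and Rprm in them are a description and none of the 3 was tested. Wells were kept if they had counts for 500 genes or more and less than 25% of their counts came from mitochondrially encoded genes, which left out 46 of 576. The kept wells also held 131 with Pdyn together with Tac1 or Rprm, and 306 with no Pdyn count, which are the wells the Pdyn-only wells were set against within each mouse.

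All 6 mice carried the genotype Ai14f/+;Sf1-Cre and were killed at postnatal day 10. They were 3 males and 3 females. Sf1-Cre expresses Cre recombinase under control of Nr5a1, the gene of the transcription factor SF-1, and Ai14f is a fluorescent reporter that Cre switches on, so a sorted cell had expressed Cre at some time, not necessarily on the day of sorting. Hypothalamus was roughly dissected, dissociated with papain and sorted by fluorescence, and each mouse filled 1 plate of 96 wells prepared with the BD Precise whole transcriptome kit, so mouse and plate cannot be told apart.

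Pdyn encodes prodynorphin, the precursor of the dynorphin peptides, which act mainly through the kappa opioid receptor encoded by Oprk1. Prohormone convertases and carboxypeptidase E cut and trim such precursors in dense-core vesicles, where an amidating enzyme finishes some other neuropeptides. In the ventromedial hypothalamus (VMH), a nucleus known for its part in energy balance, defence and reproductive behaviour, most projection neurons are glutamatergic and use the vesicular transporter encoded by Slc17a6. Tac1, the precursor of substance P, and Rprm, a regulator of the cell cycle, are each expressed in parts of this nucleus.

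The 3 metallothionein genes lie next to each other on chromosome 8. The main test below called all of them higher in Pdyn-only wells than in wells with no Pdyn. Metallothioneins are small cysteine-rich proteins that bind zinc and copper. Zinc acts on the promoters of some metallothionein genes through metal response elements, whose core is TGCGCNC or TGCACNC. The 240 bases that end shortly before each start site (RefSeq, build GRCm38.p6, plus strand) are shown because these 3 neighbouring genes are described together below, with core matches on either strand in capitals. They span chr8:94178839-94179078 for Mt1, chr8:94172368-94172607 for Mt2 and chr8:94152357-94152596 for Mt3.
Mt1: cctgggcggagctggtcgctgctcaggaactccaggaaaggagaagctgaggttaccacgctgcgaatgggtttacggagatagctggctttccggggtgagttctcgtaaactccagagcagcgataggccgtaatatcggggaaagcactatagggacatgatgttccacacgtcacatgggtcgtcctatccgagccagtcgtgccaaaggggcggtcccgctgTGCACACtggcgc
Mt2: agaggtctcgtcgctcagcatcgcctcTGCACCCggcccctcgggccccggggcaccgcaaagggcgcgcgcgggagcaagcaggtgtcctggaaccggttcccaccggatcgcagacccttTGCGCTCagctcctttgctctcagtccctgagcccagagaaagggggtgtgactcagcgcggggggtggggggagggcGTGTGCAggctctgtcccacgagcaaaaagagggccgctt
Mt3: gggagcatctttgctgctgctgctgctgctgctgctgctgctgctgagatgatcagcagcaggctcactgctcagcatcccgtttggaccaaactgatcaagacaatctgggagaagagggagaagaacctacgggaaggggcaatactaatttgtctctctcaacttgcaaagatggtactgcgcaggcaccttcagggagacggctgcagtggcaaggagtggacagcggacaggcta
Mt1 held 1 match in this window, Mt2 held 3 and Mt3 held none. At least 1 match was present in 20.4% of 32851 promoter windows of the same length and at least 3 in 1.18%. A match is only a run of letters, and a window without one says nothing of the rest of the promoter. Bases outside these 240, at the start site or further away, were not searched, so no count covers a whole promoter. The Mt2 window overlaps 1 annotated exon.

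Pdyn-only wells were found in every mouse, but they were not equally well sampled. Males 1, 2 and 3 gave 16, 15 and 23 such wells, and females 1, 2 and 3 gave 18, 6 and 15. Their counts summed to 170546, 88053 and 181194 in the 3 males and to 90644, 13312 and 91487 in the 3 females. Female 2 was shallow in all classes, with a median of 2028.5 counts per Pdyn-only well, so that 1 count there stands for 75.1 CPM (the count scaled to a total of 1000000 for that mouse and class) and a gene with no count could lie as high as 225 CPM. Over all mice the median well had 6203 counts and 2724 detected genes among Pdyn-only wells, 7426 counts and 2999 genes among Pdyn wells with Tac1 or Rprm, and 4990.5 counts and 2306.5 genes among wells with no Pdyn. The 96 well names were shared by all plates, and none of the 1440 pairs of wells with the same name held identical counts.

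Pdyn itself was low in most members. A single Pdyn count was all that 35 of the 93 wells held, 17 held 2, 41 held 3 or more and the highest held 12. Summed over the wells of a mouse, Pdyn (chr2:129686565-129699844, minus strand) reached 364, 659 and 392 CPM in the 3 males and 651, 526 and 503 CPM in the 3 females. The ranges of the sexes overlapped. Pdyn wells with Tac1 or Rprm ran from 307 to 572 CPM of Pdyn, with a highest well of 16 counts, so the Pdyn levels of these classes overlapped. At the edge of the rule lay the 35 wells with a single Pdyn count just inside it, and 29 Pdyn wells just outside it that held exactly 1 count of Tac1 and Rprm together. With so few counts, a well can be placed in either class by 1 molecule or read.

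**Figure D1:**
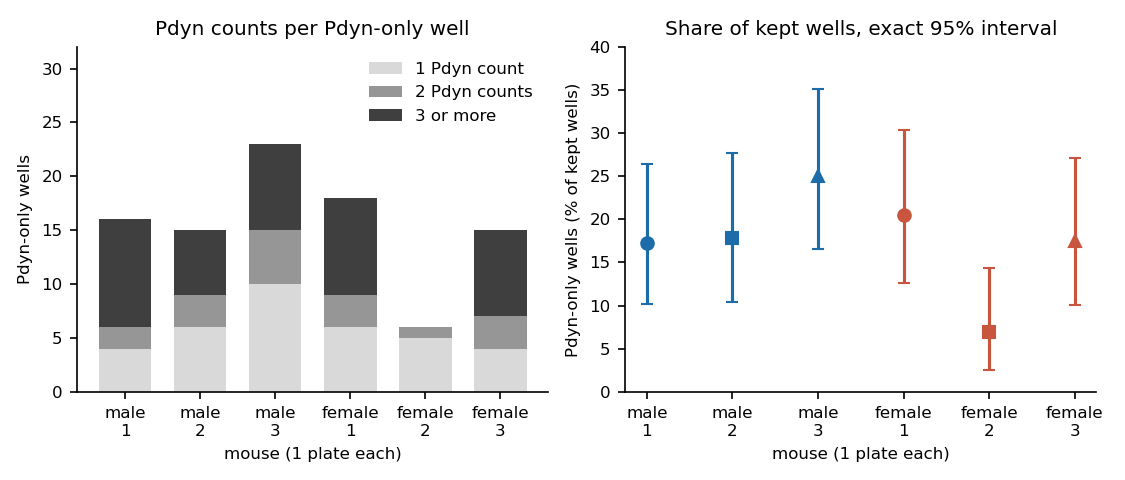
Pdyn-only wells by mouse, with males left of females. One panel stacks the wells of each mouse by their number of Pdyn counts, and the other gives Pdyn-only wells as a percentage of the kept wells of that mouse with exact 95% binomial intervals. Female 2 stands lowest at 6.90% and male 3 highest at 25%.

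Pdyn-only wells carried the marks of glutamatergic neurons, and part of them carried markers of the VMH lineage. Slc17a6 was detected in 84 of the 93 wells, which is 90.3%. A gene of the inhibitory transmitter GABA (Gad1, Gad2 or Slc32a1) was detected in 13, and 74 wells held Slc17a6 with none of these 3. The VMH regulators were detected less widely: Nr5a1 in 36 wells, which is 38.7% (exact 95% interval 28.8 to 49.4%), the zinc-finger factor gene Fezf1 in 48, the cofactor gene Vgll2 in 14 and Nr0b1, which encodes a nuclear receptor that partners SF-1, in 13. Krt18, a keratin gene listed with Pdyn and Nr5a1 as a marker of these cells, was detected in 19 wells, which is 20.4%, while its usual partner Krt8 was detected in 1. Nr5a1, Fezf1 or Krt18 was present in 66 of 93 wells. The other 27 wells had a median of 4978 counts, against 7116.5 counts in those 66, and depth and lineage cannot be told apart for them. The label "Pdyn neurons without Tac1 or Rprm" was thus met by the glutamatergic marker in most wells, while Nr5a1 and Krt18 were not detected in the majority.

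Shares of wells with a count depend on depth. The median depth of Pdyn-only wells was above that of wells with no Pdyn in 3 of 6 mice and below it in 3, and shares were computed at full depth and after thinning each well to 2000 counts. Thinning left out 4 Pdyn-only wells and 50 wells with no Pdyn. Nr5a1 (chr2:38692656-38714542, minus strand) was detected in 33.7% ± 20.2 of Pdyn-only wells and 22.2% ± 11.9 of wells with no Pdyn (SD, n = 6 mice). It was higher in 4 of 6 mice, and an exact two-sided sign-flip test over mice gave p = 0.1875. After thinning the shares were 17.3% ± 15.7 in Pdyn-only wells and 10.1% ± 3.46 in wells with no Pdyn (exact p = 0.3125). Krt18 was detected in 17.5% ± 17.9 of Pdyn-only wells and 7.42% ± 5.53 of wells with no Pdyn at full depth (exact p = 0.21875), but in none of the Pdyn-only wells of females 2 and 3, which allows a share of up to 50% and 20% there. Neither gene was thus separated from wells with no Pdyn beyond the spread between mice.

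Among 20 genes compared in this way at full depth, none passed after Benjamini-Hochberg adjustment, and the smallest p that 6 mice allow is 0.03125. A gene at that smallest p cannot pass unless many of the 20 reach it together. Not passing is thus no sign that the shares were equal. Slc17a6 was detected in 88.1% ± 11.6 of Pdyn-only wells and 71.4% ± 19.9 of wells with no Pdyn, higher in 5 of 6 mice (exact p = 0.0625, adjusted p = 0.3125). After thinning the shares of Slc17a6 were 66.0% ± 18.3 in Pdyn-only wells and 57.0% ± 11.1 in wells with no Pdyn (exact p = 0.28125). Bcl11b, which encodes a zinc-finger transcription factor, was detected in 3.15% ± 3.47 of Pdyn-only wells and 11.8% ± 3.70 of wells with no Pdyn, lower in 6 of 6 mice (exact p = 0.03125, adjusted p = 0.3125). After thinning, Bcl11b was lower in 4 of 6 mice (exact p = 0.21875). Gad1, the gene of a GABA-synthesising enzyme, was at 1.77% ± 2.80 in thinned Pdyn-only wells and 6.97% ± 5.05 in thinned wells with no Pdyn, lower in 6 of 6 mice (exact p = 0.03125), and did not pass adjustment. Penk, the precursor of enkephalins, was detected in 22.6% ± 7.19 of Pdyn-only wells and 13.9% ± 3.76 of wells with no Pdyn (exact p = 0.125), and its share was higher in 5 of 6 mice.

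**Figure D2:**
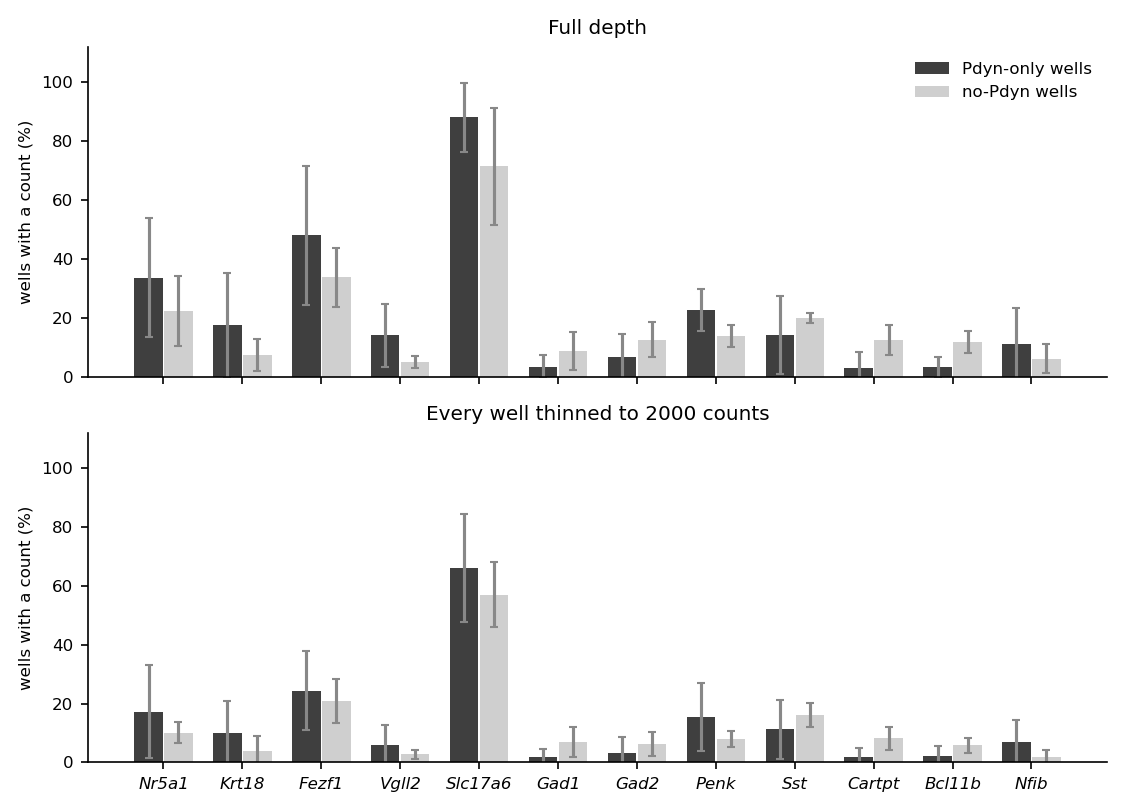
Percentage of wells with at least 1 count of each of 12 genes, as the mean over 6 mice with SD (bars end at 0), for Pdyn-only wells and wells with no Pdyn, at full depth and after thinning to 2000 counts. Slc17a6 leads at 88.1% of Pdyn-only wells at full depth, and the bars of the 2 classes overlap for most genes.

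Other opioid precursors were detected in part of the Pdyn-only wells. Penk was present in 20 of the 93 wells, Pomc (the precursor of beta-endorphin and melanocortins) in 16 and Pnoc (the precursor of nociceptin) in 14, and at least 1 of them in 39. Of the receptors, Oprl1 for nociceptin was detected in 68 wells, Oprk1 for dynorphin in 8 and Oprm1 in 1. Oprk1 was found in 9.19% ± 8.22 of Pdyn-only wells and 6.96% ± 3.96 of wells with no Pdyn (SD, n = 6 mice), higher in 3 of 6 mice, and did not pass. Esr1, the estrogen receptor gene, was detected in 3 Pdyn-only wells.

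Counts were then summed over the wells of each mouse and class and compared within mice across all genes with edgeR's quasi-likelihood test. A summed level does not tell more wells with a transcript from more transcript per well. Of 3096 genes tested, 45 differed between Pdyn-only wells and wells with no Pdyn at an adjusted p under 0.05, which is 1.45% of those tested, 24 higher (0.775%) and 21 lower (0.678%). Of the 24 higher genes, 14 were higher in 6 of 6 mice, and of the 21 lower genes 15 were lower in 6 of 6. DESeq2 called 13 genes (0.42%), 7 higher and 6 lower. Without the mouse block edgeR called 0 genes, with 94 at an unadjusted p under 0.05, and with wells thinned to 2000 counts it called 2 of 1090. Of the 45 genes, 12 higher and 9 lower ones could be tested after thinning, and 0 of the 12 and 2 of the 9 passed again. The median log2 fold change of all genes tested was -0.01, a balance that the scaling sets. The call of 12 of the 33 named genes held whichever mouse was left out: A230065H16Rik, Mt1, Calb1, Chn1 and Gpx3 on the higher side, and Sst, Rgs10, Fgf13, Serpine2, Tmeff2, Nnat and Cbln4 on the lower side. Of the others, 20 lost it without at least 1 mouse. The last, Cartpt, was called in each of the 5 fits that tested it.

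**Figure D3:**
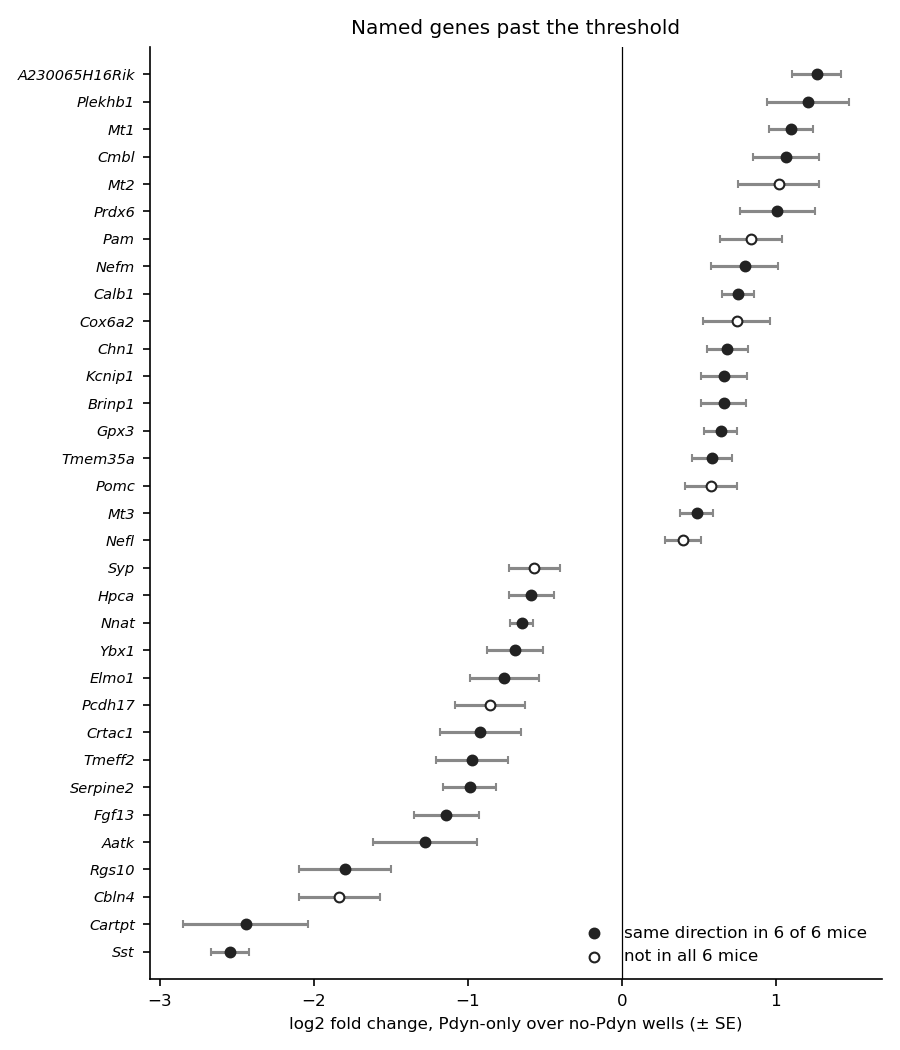
Log2 fold changes, Pdyn-only wells over wells with no Pdyn, of the 33 named genes with standard errors from edgeR. Filled points mark genes that moved the same way in 6 of 6 mice. A230065H16Rik is highest at 1.27 and Sst lowest at -2.54.

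In edgeR all 3 metallothionein genes were higher in Pdyn-only wells, with a median log2 fold change of 1.02 against -0.01 over all genes. Their summed level had a median of 1485 CPM in Pdyn-only wells (715 to 1809 CPM), against 719 CPM in wells with no Pdyn (517 to 1332 CPM). Mt1 (chr8:94179082-94180327) ran from 175 to 618 CPM with a median of 500 CPM in Pdyn-only wells, and from 80.4 to 416 CPM with a median of 173 CPM in wells with no Pdyn. It was higher in Pdyn-only wells of all 6 mice, although the ranges overlapped between mice, and rose by 1.10 ± 0.14 on the log2 scale (SE, adjusted p = 2.56e-11, edgeR).

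Mt3 (chr8:94152607-94154146), the metallothionein gene most typical of brain, was likewise higher in 6 of 6 mice. It had a median of 767 CPM in Pdyn-only wells (443 to 1048 CPM) and 509 CPM in wells with no Pdyn (416 to 797 CPM), a log2 fold change of 0.49 ± 0.11 (SE, adjusted p = 0.00138, edgeR). Without male 1 the adjusted p of Mt3 was 0.13. Mt2 (chr8:94172664-94173568) had a median of 136 CPM in Pdyn-only wells (21.9 to 225 CPM) and 42.1 CPM in wells with no Pdyn (20.1 to 119 CPM), was higher in 5 of 6 mice, and rose by 1.02 ± 0.26 on the log2 scale (SE, adjusted p = 0.0139, edgeR). Its call was lost without female 2 (adjusted p = 0.146), male 1 (0.379) or male 3 (0.687), and reads of an antisense noncoding gene that overlaps it cannot be told apart. DESeq2 called Mt1 (adjusted p = 3.4e-05) but not Mt3 (0.0529) or Mt2 (0.943). With wells thinned to 2000 counts, edgeR called neither Mt1 (adjusted p = 0.0604) nor Mt3 (0.516), and Mt2 could not be tested.

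Metallothioneins are also abundant in astrocytes, whose part in the result was not tested. The 7 astrocyte markers, all too low to be tested, summed to a median of 5.69 CPM in Pdyn-only wells (0 to 99.3 CPM), against 38.7 CPM in wells with no Pdyn (25.7 to 416 CPM), with 5 of the 7 detected and Aqp4 and Gfap at 0 in Pdyn-only wells. The ranges overlapped. Microglial markers gave 1 count and endothelial and mural markers 5 counts in all Pdyn-only wells. When wells with no Pdyn were restricted to the 137 that also lacked Tac1 and Rprm, Mt1 was still higher (0.84, adjusted p = 0.0083), while Mt2 (0.29, adjusted p = 0.835) and Mt3 (0.39, adjusted p = 0.123) did not pass.

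Gpx3 and Prdx6 were also on the higher side. Gpx3, a glutathione peroxidase, had a median of 789 CPM in Pdyn-only wells (568 to 1147 CPM) and 480 CPM in wells with no Pdyn (433 to 609 CPM), higher in 6 of 6 mice, with a log2 fold change of 0.64 ± 0.11 (SE, adjusted p = 1.07e-06, edgeR). It did not pass against wells that lacked Tac1 and Rprm as well (0.43, adjusted p = 0.0651). In Pdyn wells with Tac1 or Rprm the median of Gpx3 was 759 CPM (250 to 1090 CPM), and Pdyn-only wells were higher in 3 of 6 mice. Prdx6, a peroxiredoxin, had a median of 115 CPM in Pdyn-only wells and 66.2 CPM in wells with no Pdyn, and its log2 fold change of 1.01 was called overall (adjusted p = 0.00532) but not without male 1 (adjusted p = 0.1) or male 3 (0.0619).

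**Figure D4:**
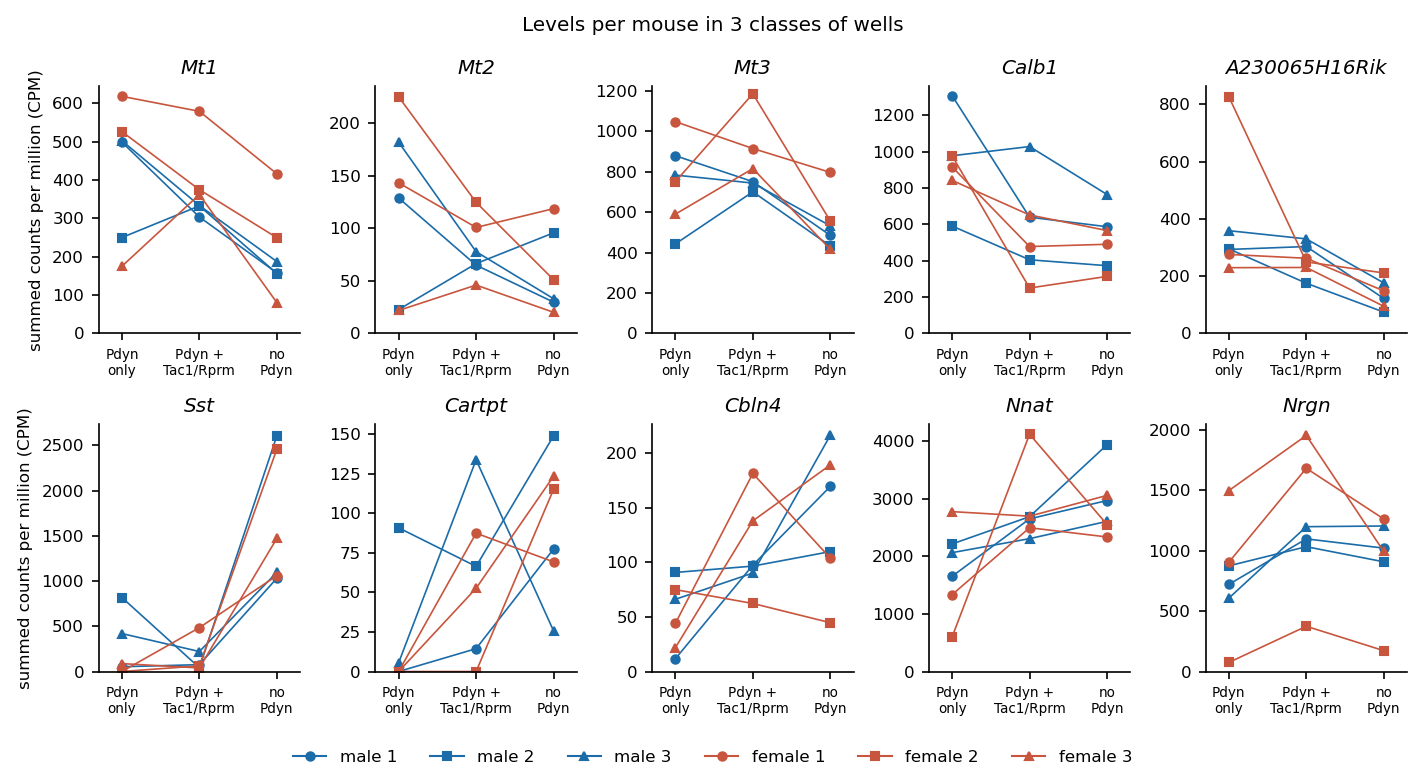
CPM of 10 genes in each mouse, for Pdyn-only wells, Pdyn wells with Tac1 or Rprm and wells with no Pdyn, on a scale of its own for each gene, with lines joining the classes of a mouse. Mt1, Calb1 and A230065H16Rik stand higher in Pdyn-only wells than in wells with no Pdyn in 6 of 6 mice, and Sst and Nnat lower in 6 of 6.

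Calb1 (chr4:15881264-15908064, plus strand), which encodes the calcium buffer calbindin, was higher in Pdyn-only wells whichever mouse was left out. Pdyn-only wells ran from 591 to 1308 CPM with a median of 946 CPM, and wells with no Pdyn from 313 to 764 CPM with a median of 528 CPM. The ranges overlapped, but every mouse was higher in its own Pdyn-only wells, and the log2 fold change was 0.76 ± 0.10 (SE, adjusted p = 3.93e-10, edgeR). It held against wells that also lacked Tac1 and Rprm (0.79, adjusted p = 3.91e-05) and among wells with Slc17a6 and no Gad1, Gad2 or Pomc (0.76, adjusted p = 3.01e-07), but not after thinning to 2000 counts (0.59, adjusted p = 0.147). Hpca, the calcium sensor hippocalcin, was lower, at a median of 228 CPM in Pdyn-only wells (75.1 to 352 CPM) and 359 CPM in wells with no Pdyn (250 to 475 CPM). Its log2 fold change was -0.59 (adjusted p = 0.00655, edgeR), lost without male 1 (adjusted p = 0.119). Of 11 calcium-binding protein genes tested, Calb1 alone rose, Hpca alone fell and 9 did not pass.

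The gene with the highest log2 fold change was A230065H16Rik, named Lbhd2 in RefSeq and not assigned a role here. It ran from 230 to 826 CPM with a median of 294 CPM in Pdyn-only wells, and from 74.5 to 211 CPM with a median of 135 CPM in wells with no Pdyn. The 2 ranges did not overlap. Its log2 fold change of 1.27 ± 0.16 (SE, adjusted p = 7.42e-12, edgeR) was 1.43 against wells also without Tac1 and Rprm. In Pdyn wells with Tac1 or Rprm it had a median of 256 CPM (175 to 330 CPM), a range that overlapped that of Pdyn-only wells. Plekhb1, which encodes a membrane protein with a pleckstrin homology domain, also had ranges that did not overlap, 82.8 to 165 CPM in Pdyn-only wells and 32 to 68.9 CPM in wells with no Pdyn (1.21, adjusted p = 0.00128; 0.0538 without male 1). Cmbl, which encodes a hydrolase, rose by 1.07 on the log2 scale (adjusted p = 0.000179, and 0.0722 without male 1).

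Kcnip1, Chn1, Brinp1 and Tmem35a were also on the higher side. Kcnip1, a subunit that modulates A-type potassium channels, ran from 248 to 369 CPM in Pdyn-only wells and from 141 to 241 CPM in wells with no Pdyn, without overlap (log2 fold change 0.66, adjusted p = 0.00207, edgeR; 0.341 without male 1). It was 1 of 5 potassium channel genes tested, and the other 4 did not pass. Chn1, a Rac GTPase-activating protein, had a median of 460 CPM in Pdyn-only wells (295 to 700 CPM) and 266 CPM in wells with no Pdyn (185 to 450 CPM), higher in 6 of 6 mice (0.69, adjusted p = 6.49e-05; DESeq2 0.0543). Brinp1 (0.66, adjusted p = 0.00138; 0.0646 without female 1) and Tmem35a, a chaperone of nicotinic receptors (0.58, adjusted p = 0.00138; 0.262 without male 1), were higher in 6 of 6 mice as well. DESeq2 called none of these 4 genes, with an adjusted p of 0.187 for Kcnip1, 0.0684 for Brinp1 and 0.144 for Tmem35a. After thinning to 2000 counts edgeR called none of the 4 (adjusted p of 0.336 to 0.645). The ranges of all 4 overlapped between Pdyn-only wells and Pdyn wells with Tac1 or Rprm. Pdyn-only wells were the higher of these in 4 of 6 mice for Kcnip1, Chn1 and Brinp1, and in 3 of 6 for Tmem35a. The median of Tmem35a was 456 CPM in Pdyn-only wells and 487 CPM in Pdyn wells with Tac1 or Rprm.

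Neurofilament genes were higher but depended on single mice. Nefm had a median of 184 CPM in Pdyn-only wells (60.7 to 254 CPM) and 101 CPM in wells with no Pdyn (46.1 to 147 CPM), with a log2 fold change of 0.80 (adjusted p = 0.0256, edgeR). Nefl had a median of 571 CPM in Pdyn-only wells and 460 CPM in wells with no Pdyn (0.40, adjusted p = 0.0486). Nefm lost its call without female 1, female 3, male 1 or male 2 (adjusted p of 0.248, 0.0955, 0.119 and 0.0551), and Nefl lost it in 5 of the 6 fits that left out a mouse, with an adjusted p of up to 0.684. The 2 genes have overlapping exons on opposite strands, so without the strand of counting their reads cannot be told apart, and Ina, the third filament gene tested, was at -0.14.

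On the lower side stood genes of secreted peptides and a cerebellin. Of 6 other neuropeptide and cerebellin genes that could be tested, Sst, Cartpt and Cbln4 fell and 3 did not pass, with a median log2 fold change of -0.98. Sst (chr16:23889573-23890958, minus strand), the somatostatin precursor, ran from 0 to 818 CPM with a median of 70.1 CPM in Pdyn-only wells, and from 1030 to 2604 CPM with a median of 1282 CPM in wells with no Pdyn. The ranges did not overlap, and the lowest Pdyn-only values were those of females 1 and 2, with no Sst count. The log2 fold change was -2.54 ± 0.12 (SE, adjusted p = 4.73e-73, edgeR). DESeq2 gave an adjusted p of 0.00428, and a robust edgeR fit 0.196. Pdyn wells with Tac1 or Rprm had a median of 69.1 CPM of Sst (39.5 to 484 CPM), so the low level was not particular to Pdyn-only wells. Sst was higher in Pdyn-only wells than in that class in 3 of 6 mice.

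The share of wells with Sst differed less than its summed level. Sst was detected in 15 of 93 Pdyn-only wells, which is 16.1%, and in 19.9% of wells with no Pdyn, and over mice the shares were 14.1% ± 13.2 in Pdyn-only wells and 20% ± 1.61 in wells with no Pdyn (exact p = 0.3125). A single well held 26.7% of all Sst counts of Pdyn-only wells and another 16.3% of those of wells with no Pdyn. The 8 GABAergic genes stood in the same direction and summed to a median of 60.4 CPM in Pdyn-only wells (0 to 138 CPM, 7 detected and Dlx6 at 0), against 167 CPM in wells with no Pdyn (60.3 to 279 CPM). The ranges overlapped, and all 8 genes were too low to be tested. Their part in the level of Sst was not tested. Among wells with Slc17a6 and no Gad1, Gad2 or Pomc the log2 fold change of Sst was -0.91 (adjusted p = 0.016).

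Cartpt, which encodes the CART peptides, gave 9 counts in 3 Pdyn-only wells. Its level was 0 in 4 of 6 mice, 5.52 CPM in male 3 and 90.9 CPM in male 2, whereas wells with no Pdyn ran from 25.7 to 149 CPM. The log2 fold change was -2.44 ± 0.41 (SE, adjusted p = 1.07e-06, edgeR), but DESeq2 gave an adjusted p of 0.243. Cbln4, a cerebellin that organises synapses, had a median of 55.2 CPM in Pdyn-only wells (11.7 to 90.9 CPM) and 140 CPM in wells with no Pdyn (44.8 to 217 CPM), lower in 5 of 6 mice (-1.83, adjusted p = 3.56e-09, edgeR). It was the member of 11 synaptic adhesion genes that passed.

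Nnat, the imprinted gene of neuronatin, a small membrane protein of the endoplasmic reticulum, was lower in Pdyn-only wells of all 6 mice. It ran from 601 to 2776 CPM with a median of 1859 CPM in Pdyn-only wells, and from 2337 to 3937 CPM with a median of 2788 CPM in wells with no Pdyn. The log2 fold change was -0.65 ± 0.08 (SE, adjusted p = 1.58e-13, edgeR), and -0.43 against wells also without Tac1 and Rprm (adjusted p = 0.0101). Nnat and Sst were the 2 genes still called when all wells were thinned to 2000 counts.

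A further 4 genes on the lower side held in every fit that left out a mouse. Rgs10, a regulator of G-protein signalling, ran from 0 to 56.8 CPM in Pdyn-only wells and from 79.2 to 176 CPM in wells with no Pdyn, without overlap (-1.80, adjusted p = 8.77e-07, edgeR). Tmeff2, a transmembrane protein with follistatin-like domains, ran from 52.8 to 88.3 CPM in Pdyn-only wells and from 116 to 275 CPM in wells with no Pdyn, again without overlap (-0.97, adjusted p = 0.0048; DESeq2 0.113). Fgf13, an intracellular factor that binds sodium channels (-1.14, adjusted p = 3.4e-05), and Serpine2, a protease inhibitor (-0.99, adjusted p = 6.73e-06), were lower in Pdyn-only wells of 6 of 6 mice. Aatk (-1.28), Crtac1 (-0.92), Pcdh17 (-0.86), Elmo1 (-0.76) and Ybx1 (-0.69) were also called, and each lost its call without at least 1 mouse.

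Of the granins and the genes that process neuropeptide precursors in general, few could be told from wells with no Pdyn. Of 10 tested genes for peptide processing and granins, 1 rose and 9 did not pass, with a median log2 fold change of 0.06. The riser was Pam, the amidating enzyme, at a median of 137 CPM in Pdyn-only wells (75.1 to 441 CPM) and 91.9 CPM in wells with no Pdyn (68.9 to 163 CPM). Its log2 fold change of 0.84 (adjusted p = 0.00479, edgeR) rested on female 1, without which the adjusted p was 0.302. Cpe (0.06), Pcsk2 (-0.21), Scg2 (0.19), Chga (0.25) and Pcsk1n (0.11) did not pass. The convertase gene Pcsk1 was too low to be tested.

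Among the VMH transcription factor genes, of 18 listed, 5 could be tested and none passed. Nr5a1 had a median of 77.8 CPM in Pdyn-only wells (0 to 298 CPM) and 51.8 CPM in wells with no Pdyn (29.4 to 114 CPM), with a log2 fold change of 0.84 ± 0.26 (SE, adjusted p = 0.0809, edgeR; 0.0208 without male 2). Fezf1 (-0.23, adjusted p = 0.798) and Slc17a6 (0.28, adjusted p = 0.305) did not pass, and Krt18 was below the filter on low counts. Among 78 cytosolic ribosomal protein genes, 7 glutamate receptor genes, 7 GABA receptor genes and 7 pan-neuronal genes none passed. Syp, the vesicle protein synaptophysin, was lower as 1 of 17 vesicle genes (-0.57, adjusted p = 0.0478), in 4 of 6 mice.

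Set against the 131 Pdyn wells that held Tac1 or Rprm, Pdyn-only wells were higher in Pcp4 and lower in Nrgn. Of 2687 genes tested, 12 passed in edgeR, which is 0.447%, 4 higher (0.149%) and 8 lower (0.298%). DESeq2 called 2 (0.0744%), Pcp4 and Nrgn. These 2 were also the ones that held whichever mouse was left out. Both encode small proteins that bind calmodulin. Pcp4 ran from 745 to 1277 CPM with a median of 921 CPM in Pdyn-only wells, and from 485 to 936 CPM with a median of 587 CPM in Pdyn wells with Tac1 or Rprm. It was higher in 6 of 6 mice, by 0.64 on the log2 scale (adjusted p = 4.06e-07, edgeR).

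Nrgn, the gene of neurogranin, moved the other way. It ran from 75.1 to 1497 CPM with a median of 798 CPM in Pdyn-only wells, and from 375 to 1954 CPM with a median of 1148 CPM in Pdyn wells with Tac1 or Rprm. The ranges overlapped widely, yet Nrgn was lower in Pdyn-only wells of each mouse, with a log2 fold change of -0.65 (adjusted p = 5.34e-09, edgeR). Resp18, a gene of endocrine secretory granules, was also lower in 6 of 6 mice (-0.37, adjusted p = 0.00154), but not without male 3 (adjusted p = 0.445).

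Several genes from the first comparison came up again. The Pdyn-only wells are shared by both comparisons, so the values are given side by side and not as independent of each other. Calb1 was higher in 5 of 6 mice, with a log2 fold change of 0.54 (adjusted p = 7.34e-05, edgeR; 0.445 without male 1). It did not pass in DESeq2 (adjusted p = 0.436) or after thinning in edgeR (0.182). Its median was 946 CPM in Pdyn-only wells and 558 CPM in Pdyn wells with Tac1 or Rprm (250 to 1028 CPM). Cbln4 was lower by a log2 fold change of -1.29 (adjusted p = 0.00537), and Nnat by -0.46 (adjusted p = 2.24e-06; robust edgeR 0.905). None of the 3 metallothionein genes passed here, and Mt3 was at a median of 767 CPM in Pdyn-only wells and 784 CPM in Pdyn wells with Tac1 or Rprm. Nr5a1 (0.25), Krt18 (-0.29) and Fezf1 (-0.07) did not pass. Scg2, a granin, was lower (-0.34, adjusted p = 0.0465). The other called genes were Cox6a2 (1.31) and Rab3b (0.55) on the higher side and A2ml1 (-1.19), Pcdh17 (-0.93) and Syp (-0.68) on the lower side, and each lost its call without at least 1 mouse.

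The study compared the sexes, and the share of kept wells that were Pdyn-only did not differ between them beyond the spread between mice. They made up 17.2, 17.9 and 25% of kept wells in the 3 males and 20.5, 6.90 and 17.4% in the 3 females. The means were 20.02% ± 4.32 in males and 14.9% ± 7.12 in females (SD, n = 3 each), a difference of 5.09 percentage points (exact permutation test, two-sided, p = 0.5, where the smallest p possible is 0.1). Without the shallow female 2 the difference was 1.07 percentage points.

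The labelled sexes were checked with the Y-linked gene Eif2s3y, which in wells with no Pdyn was at 29.8, 39.02 and 73.4 CPM in males and 0, 0 and 2.87 CPM in females.

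Within Pdyn-only wells, 4 of 1805 genes differed between males and females in edgeR, which is 0.222%, 2 higher and 2 lower in males (0.111% each), and DESeq2 also called 4. Of the 4 genes called in edgeR none held in each of the 6 fits that left out a mouse, and leaving out female 3 left no call (92 genes at an unadjusted p under 0.05). Ndn, the imprinted gene of necdin, was at 3946, 2544 and 3929 CPM in males and 728, 1878 and 1049 CPM in females, so the sexes did not overlap (log2 fold change 1.70, adjusted p = 0.0468, edgeR). Araf, a kinase of the RAF family, was at 11.7, 11.4 and 22.1 CPM in males and 221, 150 and 557 CPM in females (-4.42, adjusted p = 0.00418; 0.344 without female 3). Its exons overlap those of Syn1 on the opposite strand. Eif4a2, an RNA helicase of translation initiation, was at 46.9, 45.4 and 138 CPM in males and 695, 376 and 350 CPM in females (-2.60, adjusted p = 0.0463). In wells with no Pdyn the means of these 3 genes lay in the same direction. Ndn averaged 3500 ± 184 CPM in males and 1394 ± 412 CPM in females there (SD, n = 3 each), and none of the 3 was among the genes whose contrast differed by sex in the test given below.

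**Figure D5:**
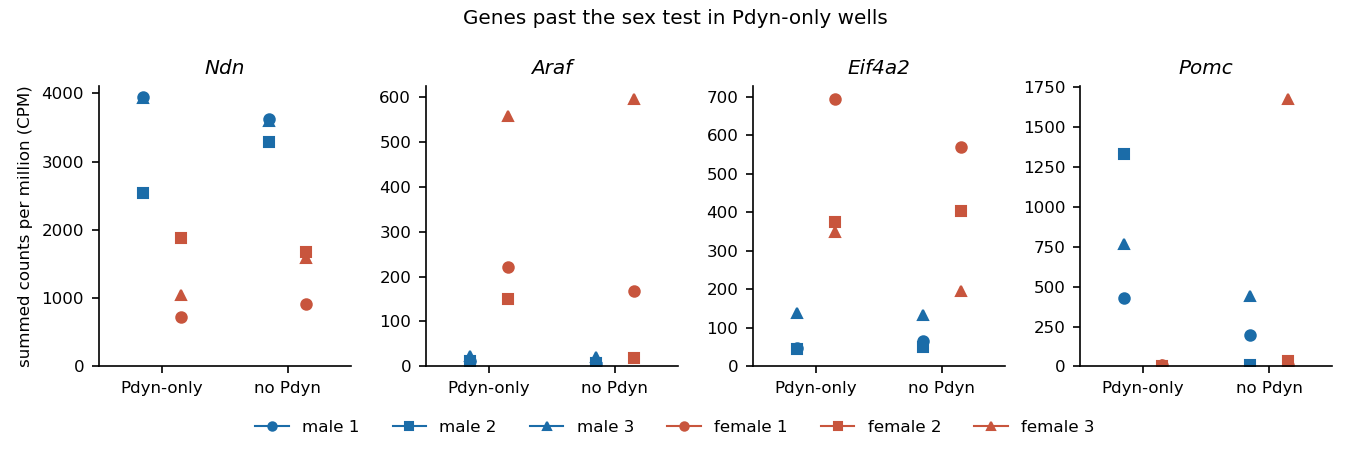
CPM of Ndn, Araf, Eif4a2 and Pomc in each mouse, males left of females, in Pdyn-only wells and in wells with no Pdyn. Ndn and Eif4a2 do not overlap between the sexes in either class, and Araf and Pomc do not overlap in Pdyn-only wells.

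Pomc was the fourth gene. It was at 428, 1329 and 767 CPM in Pdyn-only wells of males and at 11.03, 0 and 10.9 CPM in those of females (log2 fold change 6.15, adjusted p = 0.00346, edgeR). Wells with no Pdyn did not show this, at 197, 7.09 and 441 CPM in males and 9.90, 31.99 and 1674 CPM in females. Pomc counts came from 16 Pdyn-only wells, of which 1 held 35.3% of them, and the call was lost without female 1 (adjusted p = 0.0881) or female 3 (0.182). The 4 markers of arcuate POMC neurons summed to a median of 316 CPM in Pdyn-only wells (0 to 1454 CPM), against 174 CPM in wells with no Pdyn (31.9 to 1904 CPM), and all 4 were detected. How far such cells entered the sort was not tested.

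A direct test of whether the contrast of Pdyn-only wells with wells with no Pdyn differed by sex called 5 of 3946 genes in edgeR, which is 0.127%, 4 with a higher (0.101%) and 1 with a lower contrast in males (0.0253%). They were the peptide precursor genes Pomc, Gal, Sst and Npy, and Pcp4. DESeq2 called 0, with 49 genes at an unadjusted p under 0.05. A robust edgeR fit also called 0, with 215 genes at an unadjusted p under 0.05, as many as in the edgeR test itself. The peptides rested on few wells: all 85 Npy counts of Pdyn-only wells lay in 1 well of male 1, and 70.7% of the Gal counts lay in 1 well.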

How the data were processed

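The authors deposited raw counts, whole numbers for 21926 genes in each of the 96 wells of 6 plates. Per the submitters' processing notes, HTSeq and mm10 were used. Not given in the sources used here are versions, aligner, strandedness, how multiply matching reads were handled and whether molecules were counted, so overlapping genes on opposite strands can share counts. No doublet caller was run.

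Counts were summed per mouse and class, since wells are not replicates, and tested in edgeR 4.0.16 (R 4.3.3) with TMM, filterByExpr (minimum count 10), the quasi-likelihood F-test and Benjamini-Hochberg adjustment at 0.05. Mouse was a block in comparisons of classes, because both classes came from the same animal. The sex comparison within Pdyn-only wells had no block. Pdyn, Tac1 and Rprm were left out of the tests. CPM are counts divided by the sum of that mouse and class. Nothing in the labels says more of the replicates than that each is a separate mouse.

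Named in each comparison were up to 12 genes per direction, by fold change, with an adjusted p under 0.05, 20 CPM or more in a class and 1 direction in every mouse. Where fewer than 3 met this, 5 were taken by p instead. Added were up to 4 passing members of each of 35 gene lists, the opioid and peptide processing lists, Pdyn, Nr5a1, Krt18 and Fezf1. Genes called outside this rule and described (Nnat against Pdyn wells with Tac1 or Rprm) were chosen after their values were seen. Lists were described by counts and medians. Shares were compared by two-sided exact tests over 6 mice in scipy 1.17.1, adjusted over 20 genes. Intervals are exact Clopper-Pearson 95% intervals, and a 0 allows up to 3 counts. Both cover counting error only. Thinning to 2000 counts used seed 7. Positions are from GENCODE on the same build, and promoters from RefSeq. Each fit was tested on simulated counts with the same dispersion for all genes, which cannot show the effect of spread that differs by gene. Changes of 1 on the log2 scale were recovered for 81.1% of changed genes over wells with no Pdyn. The share was 93.9% against Pdyn wells with Tac1 or Rprm, 45.1% between the sexes and 23.2% for the contrast by sex.

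Alternatives were DESeq2 1.42.0, RLE scaling, no filter, thinning, at least 1000 genes per well, at least 2 Pdyn counts, narrower comparison wells, other blocks and each mouse left out. A robust fit was added after seeing the data. The members, lists and tests were chosen with earlier results of these data known.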

Additional observations from a re-analysis of the deposited data

Results flagged for a closer look

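Of 46 sets of values over the 6 mice, 7 had 1 mouse far from the other 5 in Pdyn-only wells. Chance alone flags about 1 in 20 where values are normally spread, which was not checked for these sums of unequal depth. A230065H16Rik was at 826 CPM in female 2 and 230 to 359 CPM in the other mice. Scg2 was at 1953 CPM in female 2 and 772 to 1125 CPM in the others, and A2ml1 at 150 CPM in female 2 and 22.1 to 55.2 CPM in the others. In female 2, 1 count stands for 75.1 CPM, so its A2ml1 value rests on very few counts. Pam was at 441 CPM in female 1 and 75.1 to 153 CPM in the others, Pcdh17 at 177 CPM in female 1 and 34.1 to 82.1 CPM in the others, and Nr5a1 at 298 CPM in female 1 and 0 to 88.3 CPM in the others. Cartpt was at 90.9 CPM in male 2 and 0 to 5.52 CPM in the others.

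For 5 genes the contrast of Pdyn-only wells with wells with no Pdyn differed between males and females by a test of the difference itself in edgeR. The log2 differences, male over female, were 8.07 for Pomc, 6.91 for Gal, 6.61 for Npy, 3.12 for Sst and -0.84 for Pcp4. Pcp4 averaged 853 CPM in Pdyn-only wells and 982 CPM in wells with no Pdyn of males, and 1135 CPM and 732 CPM in those classes of females. DESeq2 called none of these 5.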

How the results depend on the processing

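For Pdyn-only wells over wells with no Pdyn, the 45 called genes became 13 in DESeq2, 2 after thinning, 0 without the mouse block, 26 against comparison wells also without Tac1 and Rprm, 22 among Slc17a6 wells without Gad1, Gad2 and Pomc, and 19 to 42 with a mouse left out (19 without male 1). Against Pdyn wells with Tac1 or Rprm, the 12 genes became 2 in DESeq2, 29 without a filter, 5 after thinning, 5 with at least 2 Pdyn counts, 0 without the block (47 at an unadjusted p under 0.05 in edgeR), and 4 to 12 with a mouse left out. Between the sexes within Pdyn-only wells, the 4 genes became 15 without a filter, 2 after thinning, 2 with at least 2 Pdyn counts, and 0 to 3 with a mouse left out (0 without female 3). The 5 genes whose contrast differed by sex became 0 in DESeq2, 0 in the robust fit, 1 after thinning, 0 without the block (65 at an unadjusted p under 0.05 in edgeR), and 4 to 6 with a mouse left out.

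Same-numbered males and females did not deviate together (correlations of -0.124, -0.147 and 0.0646 for numbers 1, 2 and 3), so they share only a number, and a replicate block gave 4 genes between the sexes. The sex difference in the share of wells ran from 1.07 to 7.85 percentage points with a mouse left out. The log2 fold change of Pomc over wells with no Pdyn reversed to -0.68 against wells also without Tac1 and Rprm, and ran from -0.38 (without male 2) to 1.84 with a mouse left out. The difference by sex of the Npy contrast reversed to -3.18 in DESeq2, and ran from -1.09 (without male 1) to 8.02 with a mouse left out. The causes were not tested. RLE scaling moved none of these 4 counts by over 1.5 times, nor did a minimum of 1000 genes the 3 for which it was run (it was not run for the contrast by sex). Leaving out the filter moved the median log2 fold change of all genes to -0.17, and of the sex difference within Pdyn-only wells to 0.17.

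Depth is a limit. The Pdyn-only wells of female 2 sum to 13312 counts, and thinning lowered the genes tested over wells with no Pdyn to 1090. In the class comparisons and the contrast by sex, the edgeR p-values rest on a spread pooled across genes. There the DESeq2 counts are the stricter reading. Between the sexes within Pdyn-only wells DESeq2 was not stricter. It also called 4 genes, and its adjusted p for Pomc was 1.93e-06, against 0.00346 in edgeR.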

Other observations

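Some gene groups that take part in energy sensing were detected at similar low levels. The 22 genes of energy-sensing receptors and their signalling summed to a median of 402 CPM in Pdyn-only wells (311 to 751 CPM) and 402 CPM in wells with no Pdyn (320 to 545 CPM). The leptin receptor gene Lepr was detected in 1 of 93 Pdyn-only wells, which is 1.08%. Crhr2, a receptor for urocortins, had a median of 34.6 CPM in Pdyn-only wells (0 to 88.3 CPM) and 7.85 CPM in wells with no Pdyn (3.67 to 14.9 CPM), and was higher in 5 of 6 mice. It was picked after its values were seen and was too low to be tested in the fit across genes.

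The nuclear factor I genes, which encode transcription factors of late-differentiating neurons and glia, gave a median of 33.4 CPM for Nfia, 14.3 CPM for Nfib and 35.9 CPM for Nfix in Pdyn-only wells, against 12.5, 10.1 and 16.04 CPM in wells with no Pdyn. All 3 ranges overlapped, and none of these values was tested. Immediate early genes, which mark recent activity or handling, summed to a median of 513 CPM in Pdyn-only wells (301 to 721 CPM) and 447 CPM in wells with no Pdyn (243 to 643 CPM).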
